A study of Mus musculus with 32 samples.

Results

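Potassium channel genes were examined in the RNA-seq of mouse embryonic stem cells (mESCs). They were taken as every symbol made of Kcn, further letters and a number, without Kcnq1 and Kcnk9, and the values of Kcnh8, which has more than 1 entry, were summed. This gave 90 genes among the 24028 symbols in the expression tables. The study compared WT mESCs with mESCs lacking Eed, a core subunit of Polycomb repressive complex 2 (PRC2), which places the repressive mark H3K27me3 at many unmethylated, CG-rich developmental genes. Each genotype had 1 RNA-seq library, both carry the strain label TT2, and the cells were grown without feeders on gelatin with serum and leukemia inhibiting factor. In the labels, the Eed-/- samples of other assays have another strain name, so line and genotype may differ together and cannot be told apart here. Levels are given as FPKM, in which fragments are divided by transcript length and by sequencing depth, so that genes can be compared within a library. Where a pair of values follows a gene, the first is WT and the second the library labelled Eed-/-. With 1 library per genotype, there is no replicate check of any difference below, and the spread between cultures is unknown.

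Potassium channels let K+ leave or enter cells along its electrochemical gradient and so hold the resting potential and shape electrical signals. Voltage-gated channels (Kcna to Kcnd, Kcnh, Kcnq and the silent subunits Kcnf, Kcng, Kcns and Kcnv) open on depolarization. Inward rectifiers (Kcnj) pass K+ into the cell more readily than out of it. K2P channels (Kcnk), whose subunits carry a pair of pore domains, give the background or leak current. Channels of the Kcnm, Kcnn, Kcnt and Kcnu kinds open with intracellular calcium, sodium or alkalinization, and auxiliary subunits (Kcnab, Kcne, Kcnip, Kcnmb) change the gating or trafficking of the pore. Many of these genes are known for neurons, muscle or transporting epithelia, and K2P channels also set the membrane potential of cells that do not fire.

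Since the study concerns CG-rich, unmethylated regions, the upstream sequence is shown for 4 of the genes: those with the highest levels in WT (Kcnk5 and Kcnk1), with the largest positive change (Kcnj12) and with the largest negative change (Kcnj4). Each is the 250 bases before a RefSeq start of the gene, on the gene's own strand, 5′ to 3′, from build GRCm38.p6. A gene can have several starts, and the one used need not be the most upstream. They are chr14:20181783-20182032 on the minus strand for Kcnk5, chr8:125994852-125995101 on the plus strand for Kcnk1, chr11:61065554-61065803 on the plus strand for Kcnj12 and chr15:79505242-79505491 on the minus strand for Kcnj4. Capitals mark CG, which reads the same on both strands.
Kcnk5: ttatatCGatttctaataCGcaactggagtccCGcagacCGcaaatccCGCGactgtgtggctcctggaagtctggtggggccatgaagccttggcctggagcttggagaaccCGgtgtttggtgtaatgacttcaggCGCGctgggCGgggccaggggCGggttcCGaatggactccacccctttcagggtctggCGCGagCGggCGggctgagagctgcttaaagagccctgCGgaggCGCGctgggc
Kcnk1: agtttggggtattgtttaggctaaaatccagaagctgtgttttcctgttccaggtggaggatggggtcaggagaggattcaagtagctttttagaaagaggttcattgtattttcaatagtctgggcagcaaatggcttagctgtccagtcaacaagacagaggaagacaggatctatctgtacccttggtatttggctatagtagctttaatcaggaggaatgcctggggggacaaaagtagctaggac
Kcnj12: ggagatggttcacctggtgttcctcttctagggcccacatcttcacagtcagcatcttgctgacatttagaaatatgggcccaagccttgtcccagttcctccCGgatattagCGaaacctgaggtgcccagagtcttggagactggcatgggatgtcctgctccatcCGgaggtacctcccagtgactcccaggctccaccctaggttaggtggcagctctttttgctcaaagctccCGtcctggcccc
Kcnj4: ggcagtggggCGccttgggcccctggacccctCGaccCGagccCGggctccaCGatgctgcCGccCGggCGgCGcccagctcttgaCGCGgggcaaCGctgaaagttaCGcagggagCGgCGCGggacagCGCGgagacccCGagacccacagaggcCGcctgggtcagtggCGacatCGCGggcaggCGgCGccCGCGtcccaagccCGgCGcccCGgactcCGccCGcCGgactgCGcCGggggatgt
In the 300 bases that also hold the first 50 after the start, CG occurred 26 times for Kcnk5, 10 times for Kcnk1, 4 times for Kcnj12 and 41 times for Kcnj4. The shown part of Kcnk1 held 0 of its CGs. Among these 4, neither the genes with the highest levels nor those with the largest changes had windows alike in CG number.

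RefSeq promoter windows of this length could be matched for 67 of the 90 genes, with 92 windows in all. At least 15 CGs were present in 35 of these windows (38%), against 34.6% of all 32851 windows. By gene, taking the window with the most CGs, 34 of 67 (50.7%) had 15 or more, against 37.1% of 27025 genes. This choice favours genes with several windows, and the channel genes had more windows per gene. Genes listed at 0 in both libraries had fewer: 4 of 15 (26.7%) reached 15 CGs, with a median of 9. Among genes that passed the filter on low values described next, 21 of 37 (56.8%) did, with a median of 18. Genes under the filter but not at 0 in both had 9 of 15 (60%), with a median of 17. These shares describe the windows and were not tested. The split by level was not made over all genes, so it need not be particular to channel genes.

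Levels of most potassium channel genes were very low in both libraries. Of the 90 genes, 19 were listed at 0 in both (Kcna2, Kcna4, Kcna10, Kcnb2, Kcne1, Kcne3, Kcne4, Kcnj1, Kcnj5, Kcnj11, Kcnj15, Kcnk7, Kcnk10, Kcnk15, Kcnk16, Kcnk18, Kcnmb1, Kcnmb2 and Kcnv1), 14 were at 0 only in WT and 6 only in the library labelled Eed-/-. Among all 24028 symbols, 7210 were at 0 in both, 1166 only in WT and 1036 only in the library labelled Eed-/-. A listed 0 can differ from a low value by a few fragments, so these counts support no direction. After quantile normalization, 77 channel genes were under an FPKM of 1 in both, as were 12657 of all 24028 symbols. A level of at least 2 was reached in WT by 2 genes, Kcnk1 and Kcnk5, and by 5 in the library labelled Eed-/-, where Kcnj12, Kcnab3 and Kcnh2 joined them. Among all 24028 symbols, 9288 reached this level in each library. The deposited FPKM of all 90 genes summed to 45.4 for WT and to 45.5 for the other library. Kcnk1 and Kcnk5 made up 48.8% of the WT sum but 31.9% of the other. The sums of the other genes were 1.34 and 3.37 for the remaining K2P genes, 10.6 and 12.1 for voltage-gated genes, 5.61 and 7.15 for inward rectifiers, 3.00 and 1.94 for calcium- or sodium-activated genes and 2.74 and 6.43 for auxiliary subunits.

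**Figure D1:**
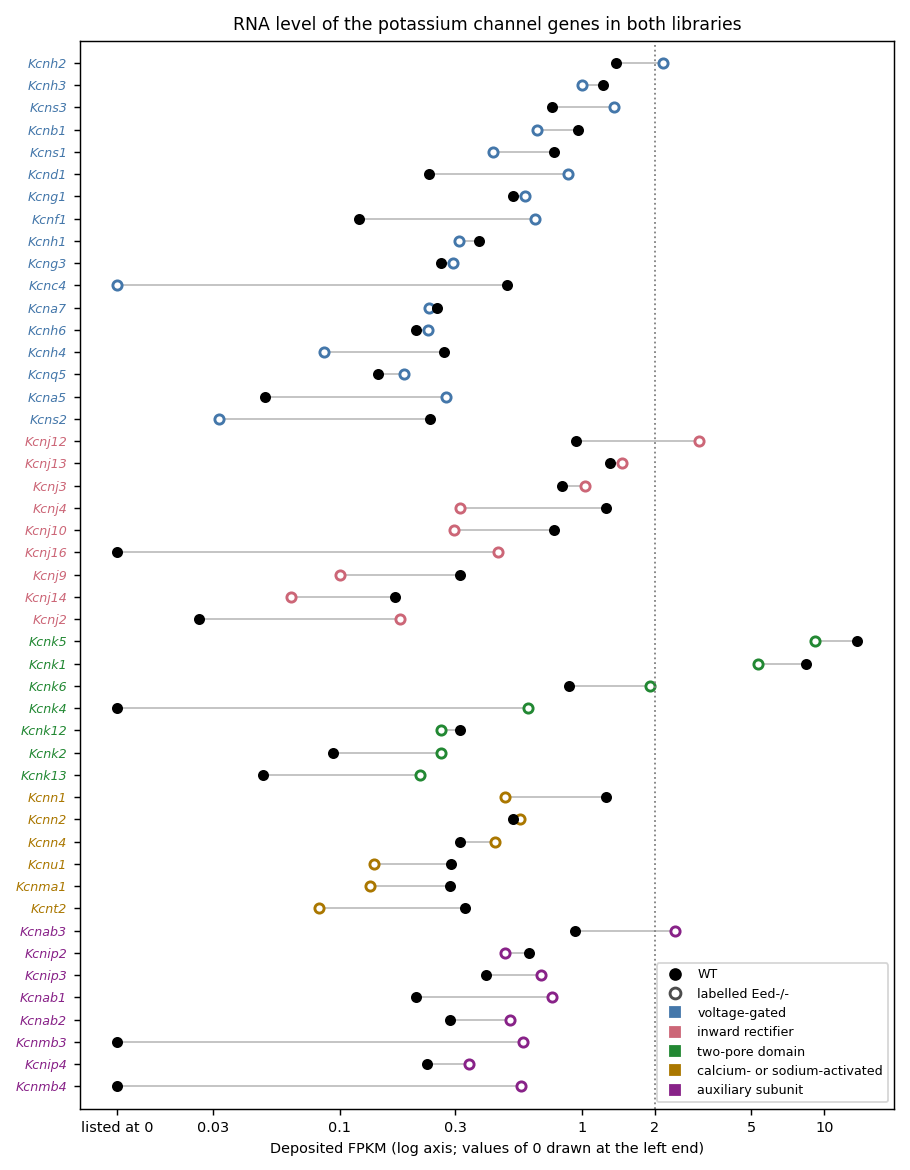
RNA level of potassium channel genes that passed the filter on low values, 1 row per gene, ordered by kind and level. The log axis gives deposited FPKM, filled points are WT, open points the library labelled Eed-/-, values of 0 stand at the left end and the dotted line marks an FPKM of 2. Kcnk5 and Kcnk1 are right of the line in both libraries.

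**Figure D2:**
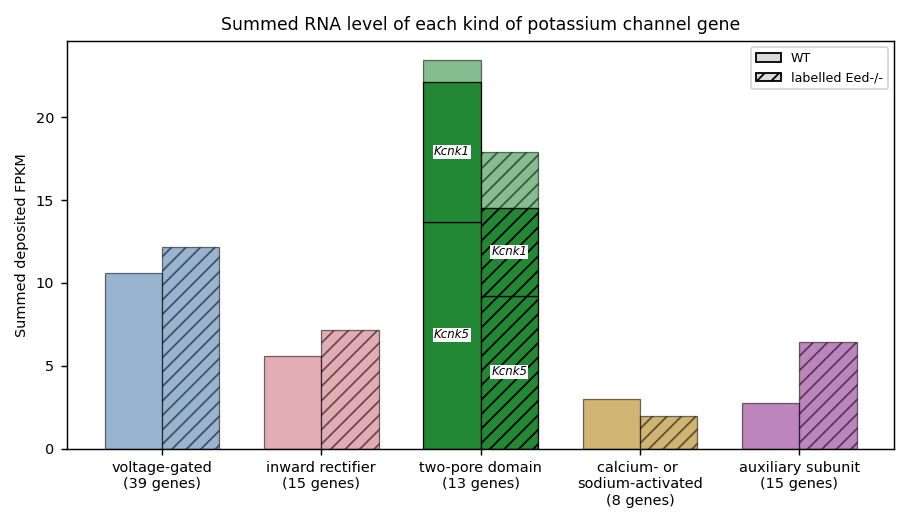
Deposited FPKM summed over all genes of each kind, listed zeros included, with plain bars for WT and hatched bars for the library labelled Eed-/-, starting at 0. The K2P (two-pore domain) sum goes from 23.5 to 17.9 and that of the auxiliary subunits from 2.74 to 6.43.

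Several checks of the libraries bear on these values. Eed, the gene named by the genotype, was listed at 63.0 and 70.9. The altered part of the gene is not given for this library, so the RNA level does not check the label. The paper checked the loss of Eed in its Eed-/- cells through H3K27me3, by western blot and ChIP-seq. Whether the same line gave this RNA-seq library is not clear from the labels. Of the other PRC2 genes, Suz12 was at 67.3 and 67.5 and Ezh2 at 34.2 and 17.7. All 8 pluripotency markers were above an FPKM of 2 in both libraries, from 25.5 to 393 in WT and from 44.4 to 373 in the other. Of the neuron markers, 3 of 8 reached 2 in WT and 4 in the other (sums 189 and 163), led by Tubb3 and Stmn2, whereas Snap25 was at 0.0712 and 0. Neural progenitor markers summed to 17.2 and 24.0 (2 of 6 at 2 or more in both), and cardiac and skeletal muscle markers to 3.84 and 1.71 (1 and 0 of 8), with Tnnt2, Actc1 and Myod1 at 0 in both. Smooth muscle markers summed to 6.88 and 1.16 (1 and 0 of 4), fibroblast markers to 1.73 and 7.14 (0 and 1 of 6, nearly all of it Thy1 in the library labelled Eed-/-, with Dcn at 0), primitive endoderm markers to 9.68 and 37.5 (1 of 6 in both, led by Lama1), and trophoblast markers to 41.8 and 11.3 (1 and 2 of 5, led by Tfap2c, with Elf5 at 0). The part of such cells in the differences of the channel genes was not tested, and in bulk RNA fewer cells of a type and less RNA per cell cannot be told apart.

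The number of fragments behind a value was recovered from the steps between low FPKM values, since 1 fragment is worth a fixed amount in a gene of known length. Among 5103 genes with 1 annotated transcript, the depth that fitted them best was 7230000 fragments (WT) and 6460000 (labelled Eed-/-). With these depths, 79.4% of 804 low values in WT and 80.8% of 882 in the other were within 0.1 of a whole number, against 20% if spread evenly. For a 2 kb transcript, an FPKM of 2 is then 26.3 fragments in WT and 23.5 in the other, and an FPKM of 0.1 on 4 kb is 2.8 and 2.5. Accordingly, most channel genes were measured by a few fragments. The intervals below are exact 95% intervals of the ratio of deposited FPKM and cover counting error only. Deposited values were not rescaled between the libraries, so a ratio of 1 need not mean no change after normalization. They use the longest transcript of each gene, so that for genes with several transcripts the fragment numbers are approximate.

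Changes were computed as the difference in log2(quantile-normalized FPKM + 1), the library labelled Eed-/- minus WT, a scale that understates the change of low genes. The filter, a mean normalized FPKM of at least 0.1, was passed by 49 of the 90 genes. Of these, 28 had a change above 0 and 21 below, and their median was 0.06, against 0.01 over all 14835 genes tested. Of all genes tested, 7558 had a change above 0 and 7263 below. Over all 90 genes the median was 0.00. Only Kcnj12 was higher by at least 2-fold and 0 genes were lower by as much, where 3.80% of all genes tested were higher and 3.98% lower. Changes ranged from -0.77 for Kcnj4 to 1.12 for Kcnj12. With 49 genes and 1 past 2-fold, these counts are too small to set the channel genes apart from genes at large. The filter bears on the direction of low genes: 8 of the 49 passed it only through their level in the library labelled Eed-/- and 6 only through that in WT, so counts and medians over genes past the filter describe them and support no direction. Over all 90 genes, deposited FPKM was higher in the library labelled Eed-/- for 43, lower for 28 and equal, at 0, for 19. No such count was made over all symbols, and many of these values rest on a few fragments. Such counts, here and by kind below, therefore support no direction.

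The low levels make this count depend on the pseudocount. With a pseudocount of 0.1 in place of 1, 13 of the 49 genes (26.5%) were higher by at least 2-fold and 8 (16.3%) lower, against 11.4% and 12.0% of all genes tested. The higher ones were 4 of 8 auxiliary subunits, 3 of 7 K2P genes, 3 of 9 inward rectifiers, 3 of 19 voltage-gated genes and 0 of 6 calcium- or sodium-activated genes. The lower ones were 3 inward rectifiers, 3 voltage-gated genes and 2 calcium- or sodium-activated genes. Of the higher ones, Kcna5, Kcnj2, Kcnj16, Kcnk4, Kcnk13, Kcnmb3 and Kcnmb4 passed the filter only through the library labelled Eed-/-. Of the lower ones, Kcnc4, Kcnh4, Kcnj9, Kcns2 and Kcnt2 passed only through WT. The shares of all genes tested cover genes of every level, so these counts by kind support no direction. By the counting interval, 10 of 46 channel genes at a mean FPKM under 2 (21.7%) had an interval wholly above 1 and 5 (10.9%) wholly below, against 15.6% and 14.3% of 4114 other protein-coding genes at that level. No test was made of these shares. Most genes named below, of every kind, were picked by their level or change, so their intervals that leave out 1 are descriptive. For 23 of the 46, both values were near whole fragments, so the intervals of the others rest on the approximate lengths.

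**Figure D3:**
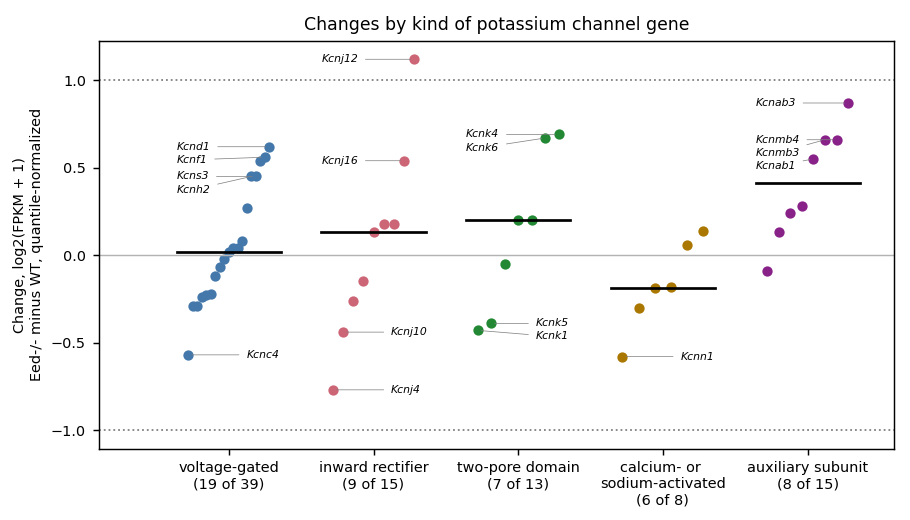
Change of each channel gene that passed the filter, in log2(FPKM + 1) after quantile normalization, by kind. Under each kind stands how many of its genes passed, black bars are medians and dotted lines mark 2-fold. Only Kcnj12 lies beyond a dotted line, and each kind but the auxiliary subunits holds 2 or more points below 0.

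**Figure D4:**
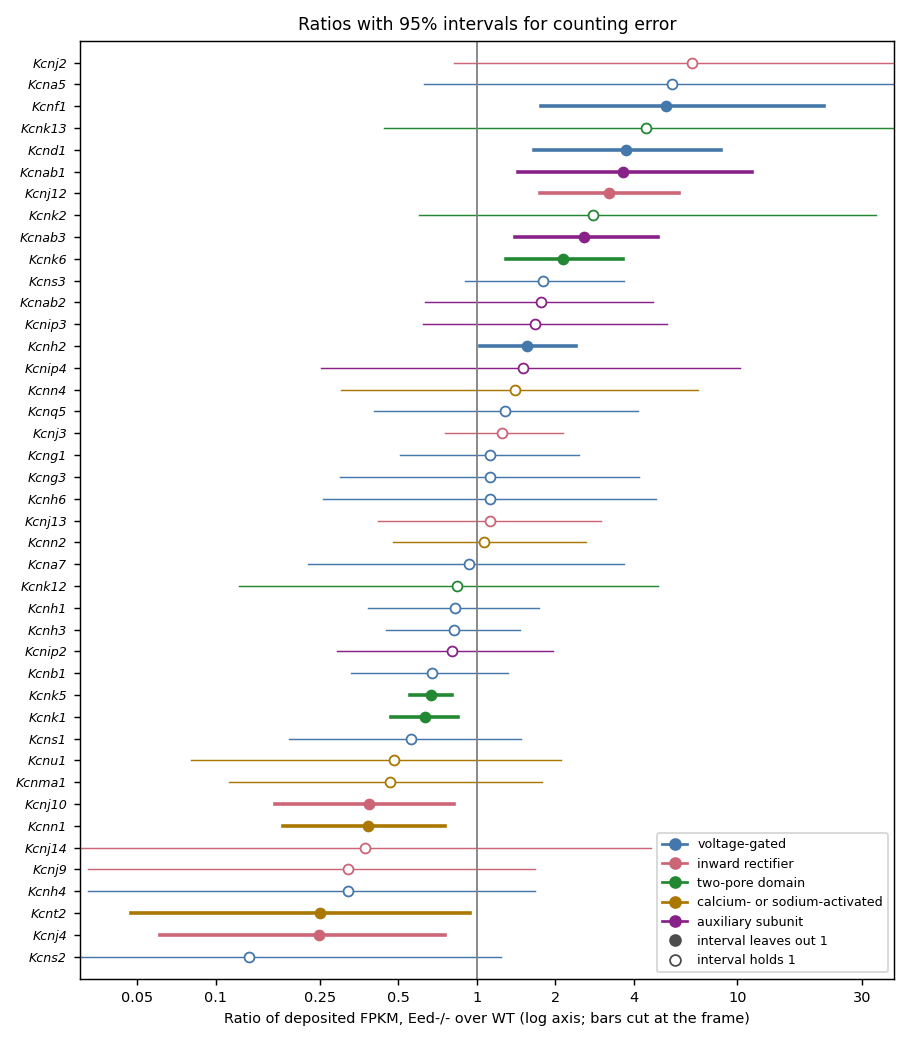
Ratio of deposited FPKM, the library labelled Eed-/- over WT, for channel genes past the filter and above 0 in both libraries, on a log axis. Bars are exact 95% intervals for counting error, and filled points mark intervals that leave out 1, among them Kcnk5 and Kcnk1 below 1 and Kcnj12 and Kcnab3 above.

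The K2P channels held the highest levels. Kcnk5 (TASK-2, an acid-sensitive leak channel, chr14:20959280-21001004 in mm9, minus strand) was at 13.7 and 9.20 deposited FPKM, from 316.1 and 189.2 fragments. Kcnk1 (TWIK-1, a weak leak channel, chr8:128519002-128554583, plus strand) was at 8.40 and 5.33, from 128.8 and 73.0 fragments. Both were thus lower in the library labelled Eed-/-, and by similar factors. Their ratios were 0.67 (interval 0.556 to 0.804) for Kcnk5 and 0.634 (0.469 to 0.85) for Kcnk1, and the changes were -0.39 and -0.43. After quantile normalization the levels were 13 and 9.67 for Kcnk5 and 7.97 and 5.66 for Kcnk1, a smaller difference than in the deposited values. Kcnk1 lies on chromosome 8, where the median change of all 702 genes tested was -0.38, whereas that of chromosome 14, with Kcnk5, was -0.07. The change of Kcnk1 was thus close to the median of its chromosome, and that of Kcnk5 was further from it.

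The remaining 11 K2P genes were low, with 5 at 0 in both libraries, 5 higher and 1 lower in the library labelled Eed-/- by deposited FPKM, and a median change of 0.00. With no such count over all genes, this one supports no direction. Kcnk6 (TWIK-2) was at 0.885 and 1.90 (25.0 and 48.1 fragments), with a ratio of 2.15 (1.3 to 3.64) and a change of 0.67. Kcnk4 (TRAAK, a mechanosensitive channel) was listed at 0 in WT and at 0.597 in the other, from 5.9 fragments. Kcnk13 (THIK-1) was at 0.048 and 0.215, which is 1.0 and 4.0 fragments. For Kcnk12 (THIK-2) the values were 0.312 and 0.262, with an interval from 0.123 to 4.96. The median change of the 7 K2P genes past the filter was 0.20, but -0.39 with a minimum mean FPKM of 1, which keeps Kcnk5, Kcnk1 and Kcnk6. Of the 5 past the filter other than Kcnk1 and Kcnk5, 3 (Kcnk2, Kcnk4 and Kcnk13) passed only through the library labelled Eed-/-. The FPKM of the 11 genes summed to 1.34 and 3.37, most of it Kcnk6.

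Inward rectifiers held both ends of the range of changes. Kcnj12 (Kir2.2, a strong inward rectifier known from heart and skeletal muscle, chr11:60836066-60884633, plus strand) was at 0.945 and 3.04, from 15.6 and 44.9 fragments. Its ratio was 3.22 (1.75 to 5.97) and its change 1.12, the only one to cross both the 2-fold threshold and an FPKM of 2. Kcnj4 (Kir2.3, of the same subfamily, chr15:79314148-79335671, minus strand) went the opposite way, at 1.26 and 0.314 (17.9 and 4.0 fragments). For this gene the ratio was 0.249 (0.0612 to 0.755) and the change -0.77. Kcnj2 (Kir2.1), the best-known member of that subfamily, was at 0.0263 and 0.177, which is 1.0 and 6.0 fragments and an interval from 0.815 to 309. The intervals of Kcnj12 and Kcnj4, both picked by their changes, lay on opposite sides of 1.

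Kcnj16 (Kir5.1, which acts with other Kir subunits) was listed at 0 in WT, while the library labelled Eed-/- had 0.45, from 10.2 fragments. Its partner Kcnj10 (Kir4.1), in contrast, was at 0.768 and 0.297, 29.0 and 10.0 fragments, with a ratio of 0.386 (0.168 to 0.815). Kcnj9 (Kir3.3, a G protein-gated subunit) was at 0.313 and 0.10, from 7.0 and 2.0 fragments, an interval that held 1. Kcnj10 and Kcnj9 both lie on chromosome 1, where the median change of all 752 genes tested was -0.29. Their own changes were -0.44 and -0.26. Since the scale understates the change of low genes, these are not directly comparable with a median over genes of every level. Kcnj11 (Kir6.2) and its partner Abcc9 (SUR2) were at 0 in both libraries, so RNA for these subunits of the KATP channel was not detected at this depth, while Abcc8 (SUR1) was at 0.58 and 0.227. Of the 15 inward rectifiers, 4 were at 0 in both libraries and 9 passed the filter, with 5 changes above 0, 4 below and a median of 0.13. Kcnj14, at 0.169 and 0.063, has 1 near-identical copy in the mm9 genome sequence, with which it may share reads.

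Voltage-gated genes were the most numerous, with 39 genes, 5 of them at 0 in both libraries. Of the 19 that passed the filter, 10 had a change above 0 and 9 below, with a median of 0.02. Kcnh2 (hERG, the channel of the cardiac rapid delayed rectifier current, chr5:23825407-23857422, minus strand) was at 1.38 and 2.15. With 40.3 and 56.1 fragments, its ratio was 1.56 (1.03 to 2.41). Kcnd1 (Kv4.1, of the A-type current) was at 0.233 and 0.872, 8.6 and 28.8 fragments, with a ratio of 3.74 (1.66 to 8.66). This gene lies on the X chromosome, where the median change of 518 genes tested was 0.46, beside a change of 0.62 for Kcnd1. That median covers genes of every level and the scale understates the change of low genes, so these values are not directly comparable. Kcnf1 (Kv5.1, a silent subunit that works only with others) was at 0.12 and 0.639, 4.0 and 19.0 fragments, with a ratio of 5.32 (1.77 to 21.5). The rule for naming picked these 3 genes by their level or change, so their intervals above 1 are descriptive, beside the 15.6% of other genes at this level with such an interval.

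In the other direction, Kcnc4 (Kv3.4) was at 0.488 in WT, from 10.0 fragments, and listed at 0 in the library labelled Eed-/-. Kcns2 (Kv9.2) was at 0.236 and 0.0316, from 7.2 and 0.9 fragments, with an interval from 0.00355 to 1.24. Kcns1 (Kv9.1) was at 0.765 and 0.428, with an interval from 0.191 to 1.48. Both are silent subunits, and neither interval left out 1. By subfamily, summed FPKM went from 0.377 to 0.738 for the 8 Kcna genes, from 0.96 to 0.65 for the 2 Kcnb genes, from 1.36 to 0.681 for the 4 Kcnc genes, from 0.285 to 0.996 for the 3 Kcnd genes, from 3.56 to 3.91 for the 8 Kcnh genes and from 1.07 to 1.74 for the 4 Kcnq genes. The 10 silent subunits (Kcnf, Kcng, Kcns and Kcnv) summed to 2.96 and 3.43. Each of these sums was thus low in both libraries.

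Of the 8 calcium- or sodium-activated genes, 4 were higher and 4 lower in the library labelled Eed-/- by deposited FPKM, with a median change of -0.08 and a summed FPKM of 3.00 for WT against 1.94. For the 6 past the filter, of which Kcnt2 passed only through WT, the median was -0.18. None of the 8 genes was at 0 in both libraries. Kcnn1 (SK1, a small-conductance channel) was at 1.25 and 0.482, from 35.0 and 12.0 fragments, with a ratio of 0.384 (0.181 to 0.757) and a change of -0.58. Kcnt2 (Slick, sodium-activated) was at 0.328 and 0.0821, from 13.1 and 2.9 fragments, with a ratio of 0.25 (0.0472 to 0.94). These 2 genes lie on chromosomes 8 and 1, whose genes at large were lower. Kcnma1 (BK, the large-conductance channel), on chromosome 14, was at 0.285 and 0.133, with an interval from 0.112 to 1.78. Kcnn4 (SK4) at 0.312 and 0.437 and Kcnn2 (SK2) at 0.518 and 0.557 were slightly higher, within counting error.

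Of the 15 auxiliary subunits, 5 were at 0 in both libraries, 8 higher and 2 lower in the library labelled Eed-/- by deposited FPKM, and the median change was 0.13. This count too has none over all genes beside it and supports no direction. The 8 genes past the filter had 7 changes above 0 and a median of 0.41, but Kcnmb3 and Kcnmb4 passed only through the library labelled Eed-/-. Kcnab3 (a cytoplasmic beta subunit of voltage-gated channels, chr11:69139760-69146544, plus strand) was at 0.939 and 2.43, from 16.0 and 37.0 fragments. Its ratio was 2.59 (1.4 to 4.98) and its change 0.87, under 2-fold only because of the pseudocount. Kcnab1, named after its value was seen, was at 0.207 and 0.754, with a ratio of 3.64 (1.44 to 11.4), so that the summed FPKM of the 3 Kcnab genes went from 1.43 to 3.69. Kcnmb4 (the neuronal beta subunit of BK) was listed at 0 in WT and at 0.562 in the other, from 5.3 fragments. Kcnmb3 was at 0 and 0.572, which is 2.0 fragments, too few to tell from 0. Kcnip2 (a calcium-binding partner of Kv4 channels) was at 0.602 and 0.483, with an interval from 0.292 to 1.96. The 4 Kcne genes were at or near 0, with a summed FPKM of 0 and 0.102. Exons of Kcnab3 and Kcnmb4 overlap other annotated genes on the opposite strand, as do those of 8 further channel genes on either strand; whether strand was used in quantification is not given in the sources used here, so reads of such pairs may be shared.

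**Figure D5:**
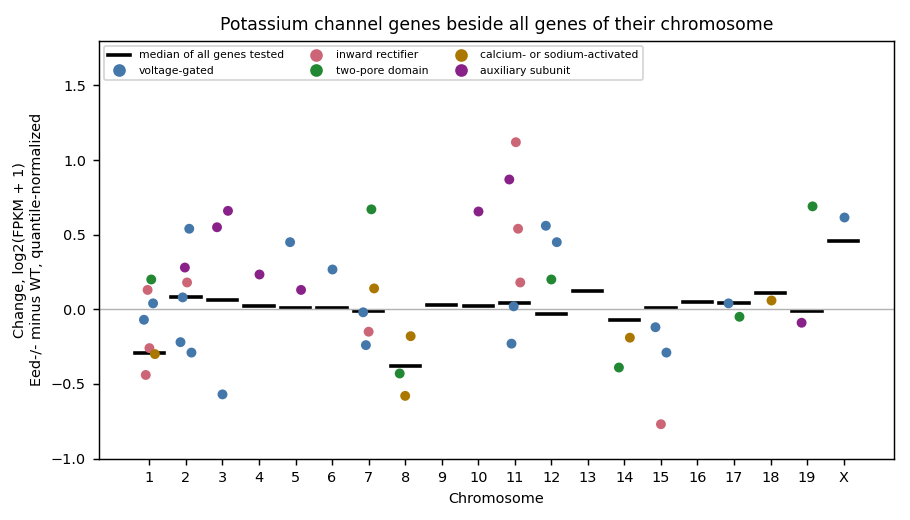
Change of each channel gene past the filter (points, coloured by kind) beside the median change of all genes tested on its chromosome (black bars), in log2(FPKM + 1) after quantile normalization. The bars of chromosomes 1, 8 and X stand apart at -0.29, -0.38 and 0.46. Bars cover genes of every level, whereas most points are low genes, whose change this scale understates.

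Chromosomes 1, 8 and X stood apart for genes at large. On chromosome 1, 4 of 7 channel genes past the filter were below 0 and 3 above, with a median of -0.07. All 3 on chromosome 8 (Kcnk1, Kcnn1 and Kcnu1) were below 0, and the 1 on X (Kcnd1) was above. The part of the chromosomes in these values was not tested. Without these chromosomes, a choice made after seeing the data, 38 of the 75 channel genes matched to other chromosomes passed the filter. They had 24 changes above 0, 14 below and a median of 0.13, against 0.03 over all genes tested there. Kcnj12 remained the only channel gene past 2-fold. As before, counts and medians over genes past the filter support no direction. Of the genes with a change below 0, 7 lie on the chromosomes left out, among them Kcnk1 and Kcnn1.

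Kcnk5 and Kcnab3 are on the study's list of genes in mESC DNA methylation valleys, the large unmethylated domains it examined. They did not share a direction, since the interval of Kcnk5 lay below 1 and that of Kcnab3 above. Kcnk5 was above an FPKM of 2 in both libraries, whereas Kcnab3 was at 0.939 in WT and 2.43 in the other. So few genes cannot show whether membership of the list goes with a level.

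Genes that work with the channels but lie outside the rule were described in the same way. Of 16 genes of the sodium-potassium ATPase, which builds the K+ gradient, and of cation-chloride cotransport, 13 passed the filter. Their median change was -0.01, with 0 higher and 2 lower by at least 2-fold. These 2 were Slc12a4 (KCC1, on chromosome 8), at 23.2 and 8.59, and Fxyd6 (a regulator of the ATPase), at 10.0 and 2.02. Of 12 channel partners without a Kcn symbol, 7 passed, with a median of 0.09 and 0 past 2-fold. The median deposited FPKM of the 16 ATPase and cotransport genes was 3.3 and 2.21, against 0.0854 and 0.128 for the 90 channel genes.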

How the data were processed

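RNA-seq of WT and Eed-/- mESCs (1 library each) was used; the other 30 samples (MethylC-seq, ChIP-seq and 4C-seq) were not analysed here. The authors depleted ribosomal RNA, prepared strand-specific libraries, mapped reads to mm9 and deposited FPKM per gene symbol. The submitters' processing notes name TopHat2 2.0.11 and Cufflinks 2.2.1; the annotation, the Cufflinks options and the use of strand are not given in the sources used here.

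From the deposited FPKM, repeated symbols were summed (268 symbols), libraries were quantile-normalized, and changes were taken as differences in log2(FPKM + 1) over genes at a mean of at least 0.1. Depth was recovered from FPKM steps in genes with 1 transcript of at least 1000 bases, with 180 bases taken off for fragment length. Of the members, 88 matched 1 gene of the mm9 annotation. Copies were sought with minimap2 2.31 (at least 80% covered, 95% identity). Python 3.11.15, pandas 2.3.3 and scipy 1.17.1 were used, and the calculations were tested on simulated data. With 1 library per group no test was possible. Members and lists were chosen with earlier results of these data known. Named with values were members changed by 2-fold or at an FPKM of 2, the 3 largest positive and negative changes of each kind, and mESC valley genes; a few genes are not reported here. Other scalings, pseudocounts, filters and thresholds were tried as alternatives.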

Additional observations from a re-analysis of the deposited data

How the results depend on the processing

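Each comparison rests on 1 library per genotype, so no alternative can show the spread between cultures. No paired analysis was possible because each RNA-seq group had 1 sample.

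The count of channel genes higher by at least 2-fold, 1 in the report, was 13 with a pseudocount of 0.1, 15 with 0.01 and 0 with a 3-fold threshold; the count lower, 0 in the report, was 8 and 11 with these pseudocounts. Their median change, 0.06 in the report, was 0.22 with a pseudocount of 0.01 and 0.45 with a minimum mean FPKM of 1. Genes that crossed an FPKM of 2 with a 2-fold change numbered 2 with either smaller pseudocount and 0 at a level of 0.5. Genes counted as expressed were 7 for WT and 11 for the other library at a level of 1, and 20 and 23 at 0.5. By kind, the median changes of 0.20 (K2P), -0.18 (calcium- or sodium-activated) and 0.41 (auxiliary) became 0.87, -0.73 and 1.02 with a pseudocount of 0.1. The median change of all genes tested was -0.09 with FPKM as deposited, 0.02 with median-ratio scaling and with either smaller pseudocount, 0.00 without a filter and 0.03 without chromosomes 1, 8 and X. With FPKM as deposited, 455 genes were higher and 801 lower by 2-fold (3.07% and 5.4%), against 564 and 590 after quantile normalization, and Kcnj12 had a change of 1.06. With pseudocounts of 0.1 and 0.01, 1694 and 1914 genes were higher and 1778 and 1989 lower. At 3-fold, 152 were higher and 137 lower. The alternatives without chromosomes 1, 8 and X and without genes that overlap another gene were chosen after seeing the data; the latter gave a median of 0.03 and the same counts of 1 and 0. The sign of all 29 named genes held under both other scalings. That sign cannot change with the pseudocount or the filter, so those alternatives do not check it. With 0 bases taken off, the depths were 6600000 and 5910000 and Kcnk5 had 304.9 and 182.9 fragments. Depth limits most channel genes to low fragment numbers.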

Other observations

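Other voltage-gated and cation channel genes outside the potassium channels were also low. Of 71 such genes (sodium, calcium, HCN, cyclic nucleotide-gated and TRP channels), 10 were listed at 0 in both libraries and 33 passed the filter, with a median change of -0.05, 0 higher and 1 lower by at least 2-fold. That gene was Cacng7, an auxiliary subunit of the calcium channel family, at 4.86 (WT) and 1.67 (library labelled Eed-/-). Of the 71, 8 were at 2 or more in WT, against 5 in the other library. The highest was Trpm7, a cation channel with a kinase domain, at 9.61 and 12.5. Their summed FPKM was 49.1 and 41.0, close in size to that of the potassium channel genes.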
